A study of Mus musculus with 4 samples.

Results

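The cytochrome P450 family 2 (Cyp2) genes were followed in the liver of mice with and without Lpiat1 (Mboat7) in their hepatocytes. Members were all genes whose mouse symbol is Cyp2, 1 lower-case letter for the subfamily and a number. Of 49 such symbols in the gene table, 47 had a matched probe, out of 23462 genes with a matched probe in all. Cyp2j12 and Cyp2j7 had none. The 47 members fall into 13 subfamilies and were read by 60 probes.

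Liver RNA was hybridised to 4 one-colour expression arrays, 1 for each combination of genotype and diet. F/F mice carry floxed Lpiat1 alleles and served as controls. LKO mice carry the same floxed alleles and Alb-Cre, whose albumin promoter is active in hepatocytes, so that other liver cells keep the gene. All were males on a C57BL/6 background, 24 weeks old, and had been given either chow or a high-fat diet (HFD) for 18 weeks from the age of 6 weeks. The labels and methods used here do not say whether the RNA of an array came from 1 mouse or from several. With 1 array per group, no difference has a replicate check, none was tested and no p-value is given.

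Cyp2 enzymes are haem proteins of the endoplasmic reticulum that use electrons from the reductase Por to add oxygen to drugs, steroids, bile acids and fatty acids, including the conversion of arachidonic acid to epoxides. They are most abundant in hepatocytes, and many are held at high levels by liver transcription factors such as HNF4A. Cyp2b and some Cyp2c genes are classic targets of the xenobiotic receptor CAR (Nr1i3), and several members differ between the sexes in mouse liver under control of growth hormone.

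Each gene is given by its brightest probe, whose background-subtracted intensity was divided by the 75th percentile of its array and brought back to a common scale (normalised signal, in arbitrary units). Differences are between log2 values, so that 1 is a 2-fold difference. Signals of different probes cannot be ranked against each other. Replicate spots of one probe gave a technical SD of 0.096 (log2) for the difference of 2 spots well above background, 3 times which is 0.29. This spread is of spots within one array, so it leaves out differences between mice, RNA preparations and arrays. No probe of a member was printed more than once. The scanner software called between 53.0% and 57.0% of the spots well above background, and no spot was saturated. On chow Mboat7 itself read 1224 in F/F against 994 in LKO, and on HFD 1105 against 916, a difference of -0.30 and -0.27. Whether its probe lies in the deleted part was not determined, so this is a weak check of the labels.

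Of the 47 members, 40 were well above background on all 4 arrays. Cyp2b13 and Cyp2c65 were so on 3 arrays and Cyp2c39 on 2. Cyp2b19, Cyp2b23, Cyp2c66 and Cyp2j11 were not well above background on any array and have no value in any comparison.

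In both genotypes the family stood lower under HFD than under chow, and in LKO it stood lower than in F/F under HFD, while the genotypes were closer on chow. On HFD, LKO exceeded F/F by 2-fold or more in 0 of the 43 members with a value, as it did in 2.36% of all genes, and fell short by 2-fold or more in 8, as it did in 1.91% of all genes. The 8 were Cyp2b9, Cyp2b10, Cyp2b13, Cyp2c37, Cyp2c38, Cyp2c50, Cyp2c54 and Cyp2d40. The median difference of the 42 members measured on both arrays was -0.40, against -0.04 over all genes, and 36 of the 42 were lower in LKO (85.7%, against 55.4% of all genes). On chow, 0 of 42 members with a value were 2-fold higher in LKO (1.11% of all genes) and 0 were 2-fold lower (1.03%). The median on chow was -0.16, against 0.01 over all genes. Of 41 measured members, 29 were lower in LKO on chow (70.7%, against 48.4% of all genes). Of these 2 comparisons, the one on HFD thus held every member that passed 2-fold between the genotypes. On chow, Cyp2b13 could not be called, since its LKO signal was not well above background. It has only a bound there, at least 1.40-fold lower in LKO.

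In F/F mice, 3 of 43 members were at least 2-fold higher on HFD than on chow (5.21% of all genes) and 9 were at least 2-fold lower (2.94%). The 3 higher were all Cyp2b genes, and the 9 lower were 8 Cyp2c genes and Cyp2g1. The median of the 41 measured members was -0.47, against -0.03 over all genes. In LKO mice, 1 of 42 members was at least 2-fold higher on HFD (8.12% of all genes) and 17 were at least 2-fold lower (4.07%). These 17 were 12 Cyp2c genes, 4 Cyp2d genes and Cyp2g1, and the median of 41 measured members was -0.84, against -0.09 over all genes. The diet comparison and the genotype comparison on HFD use the same arrays, so that a low or high value on one array enters both. All values come from whole liver, in which fewer hepatocytes and less RNA per hepatocyte cannot be told apart.

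**Figure D1:**
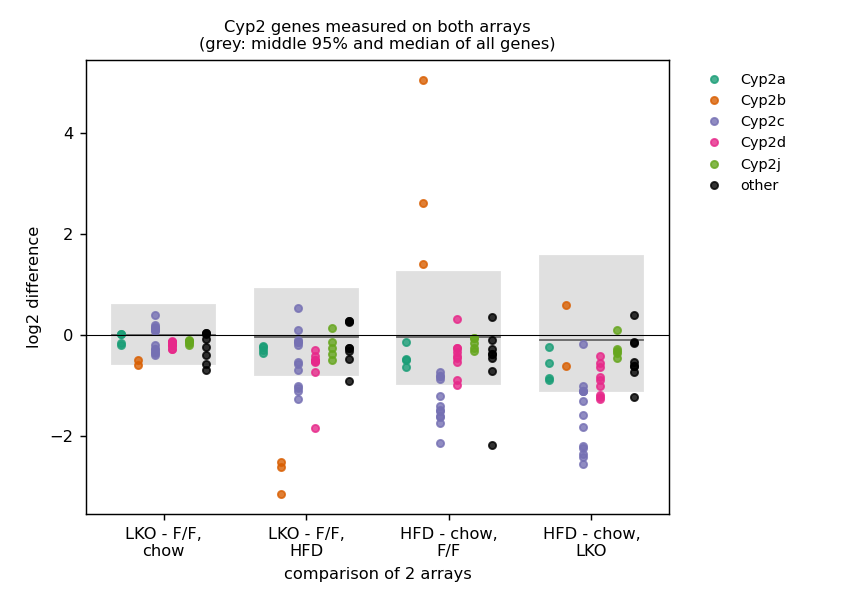
Log2 differences (vertical axis) of the members measured on both arrays, in 4 comparisons of 2 arrays (horizontal axis), with colours for subfamilies, a grey box for the middle 95% of all genes and a line for their median. On HFD the Cyp2b genes lie at -2.52 or lower in LKO, and the Cyp2c genes lie low in both diet comparisons.

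**Figure D2:**
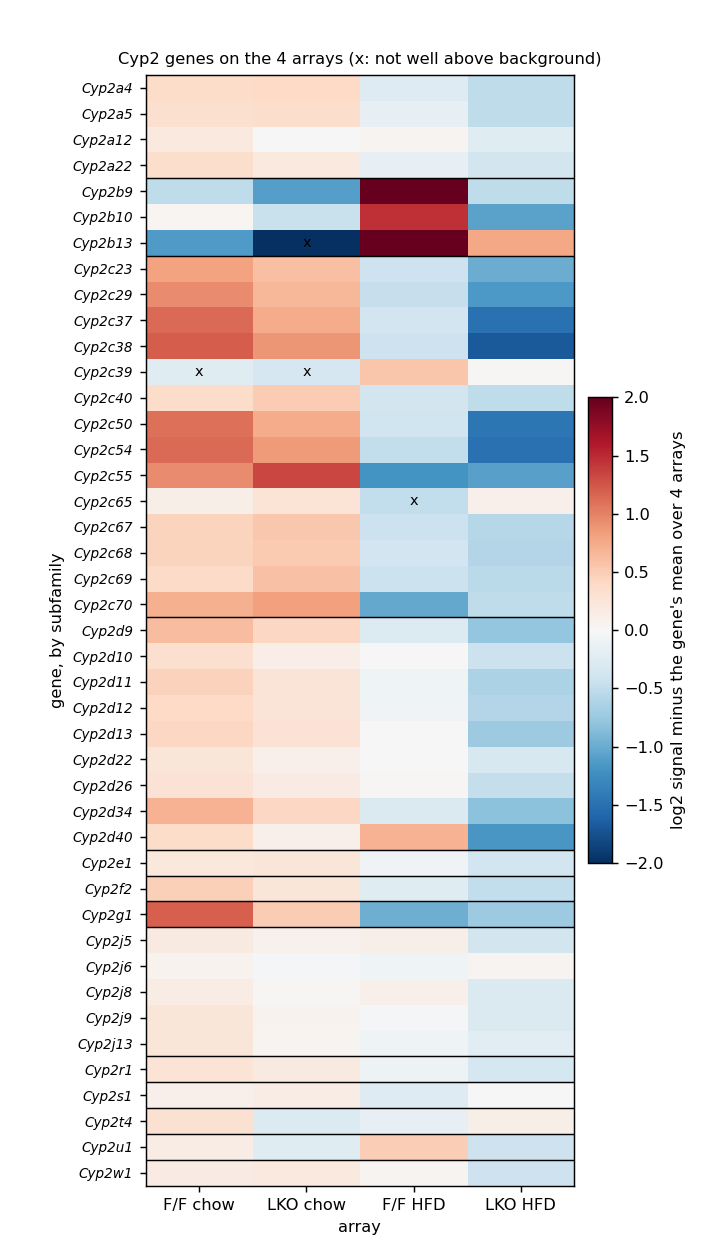
Each of the 43 members with a value (vertical axis, by subfamily) on the 4 arrays (horizontal axis), as log2 signal minus the mean of that gene over the 4 arrays. The colours end at 2 above and below that mean, and x marks a signal not well above background. The Cyp2b genes peak on the F/F HFD array, and most Cyp2c and Cyp2d genes are lowest on the LKO HFD array.

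The Cyp2b genes showed the widest differences of the family. Cyp2b10, the mouse gene most used as a readout of CAR, had a signal of 4441 (F/F) and 3161 (LKO) on chow, and 11844 (F/F) and 2059 (LKO) on HFD. The F/F HFD array was the highest and the LKO HFD array the lowest. LKO was thus 5.75-fold lower than F/F on HFD (difference -2.52) and 1.41-fold lower on chow (-0.49). A second, dimmer probe of Cyp2b10 gave 293, 202, 319 and 68.2 on the same arrays in the same order. It had a similar difference between the genotypes on HFD (-2.22) and on chow (-0.54). The probes disagreed on diet in F/F mice, where HFD was higher by 1.42 on the brighter probe and by 0.12 on the other.

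Cyp2b9, which in mouse liver is known as a female-biased gene, had a signal of 2060 (F/F) and 1368 (LKO) on chow, and 12618 (F/F) and 2064 (LKO) on HFD. The F/F HFD array stood 6.13-fold above the F/F chow array, and the LKO HFD array 6.11-fold below the F/F HFD array. On HFD, the LKO signal was thus near that of F/F mice on chow. In LKO mice the diet difference of Cyp2b9 was 0.59, against 2.61 in F/F mice.

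Cyp2b13, a close relative of Cyp2b9 that is also female-biased, was dim on chow, at 13.0 in F/F, while in LKO it was not well above background. On HFD it reached 431 (F/F) and 48.7 (LKO). HFD was 33.0-fold above chow in F/F mice and at least 5.21-fold above it in LKO mice. On HFD, LKO was 8.86-fold lower than F/F (difference -3.15). With normexp background correction, which pulls dim signals together, the genotype difference on HFD was -2.22, the diet difference was 2.68 in F/F mice, and that in LKO mice fell to 0.48, under 2-fold. Cyp2b19 and Cyp2b23, from the same cluster on chromosome 7, had signals of at most 5.29 on any array.

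The promoters of the 3 detected Cyp2b genes are shown because all 3 were highest in F/F on HFD, while 1 of them differs from the others in its upstream sequence. Each is the stretch of 250 bases before the gene start, read 5′ to 3′ on the strand of the gene, from RefSeq on GRCm38.p6. Capitals mark CAAAGTC, the first letters of the HNF4A motif, and AGGTCA, the core motif of nuclear receptors, searched on both strands.
Cyp2b9 (chr7:26173159-26173408, plus strand): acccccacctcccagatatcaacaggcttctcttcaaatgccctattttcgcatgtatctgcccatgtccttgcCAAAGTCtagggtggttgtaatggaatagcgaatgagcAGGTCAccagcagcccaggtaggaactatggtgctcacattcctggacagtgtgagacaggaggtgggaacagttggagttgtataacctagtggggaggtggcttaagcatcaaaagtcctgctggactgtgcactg
Cyp2b13 (chr7:26061245-26061494, plus strand): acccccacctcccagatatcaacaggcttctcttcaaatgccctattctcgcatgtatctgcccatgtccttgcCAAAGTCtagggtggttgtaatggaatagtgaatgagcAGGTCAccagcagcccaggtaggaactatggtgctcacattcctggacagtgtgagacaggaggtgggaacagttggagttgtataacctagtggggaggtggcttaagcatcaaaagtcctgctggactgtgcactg
Cyp2b10 (chr7:25897408-25897657, plus strand): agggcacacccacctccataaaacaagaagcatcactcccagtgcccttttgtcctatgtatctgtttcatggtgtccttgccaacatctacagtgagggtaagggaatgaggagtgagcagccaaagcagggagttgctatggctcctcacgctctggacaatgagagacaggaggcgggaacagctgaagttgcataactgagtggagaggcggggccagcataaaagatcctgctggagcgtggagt

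The Cyp2b9 and Cyp2b13 promoters differ at 2 of 250 bases (99.2% identity), and each holds 1 CAAAGTC and 1 AGGTCA. The Cyp2b10 promoter was 71.0% identical to either of them, with gaps counted as differences, and holds neither motif in this window. The xenobiotic enhancer through which CAR is known to act on Cyp2b10 lies further upstream and is outside these windows. Probe sequences were not used here. Cyp2b9 and Cyp2b13 are near-identical copies, so that some of the signal of one may come from RNA of the other.

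**Figure D3:**
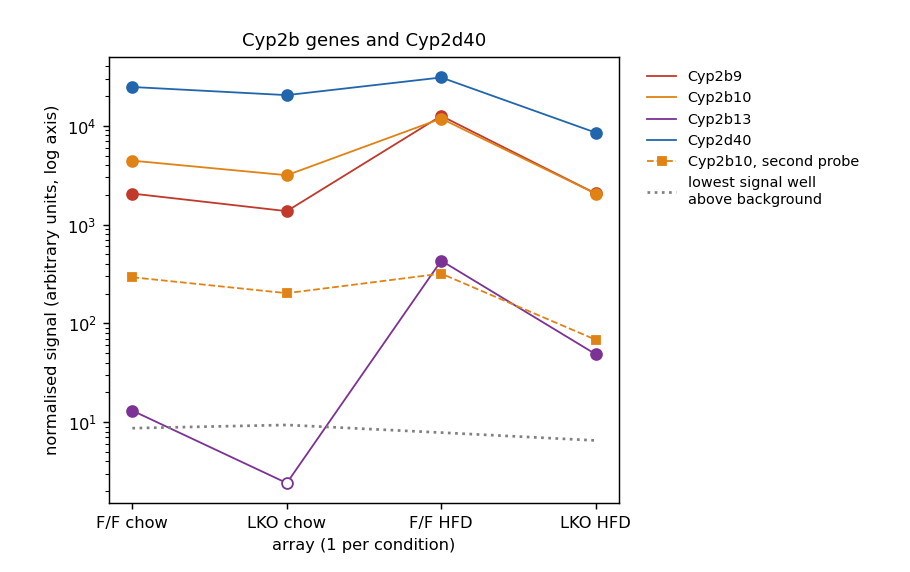
Normalised signal (vertical log axis, arbitrary units) of the 3 detected Cyp2b genes and Cyp2d40 on the 4 arrays (horizontal axis). Lines join the points of one probe as a guide to the eye, the open circle is not well above background and the dotted line is the lowest signal well above background on each array. All 3 Cyp2b genes and Cyp2d40 are lower on the LKO HFD array than on the F/F HFD array.

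All 9 Cyp2d genes were lower in LKO than in F/F on both diets, but in the main processing all 9 chow differences lay within 0.29. Over all genes, 55.4% were lower in LKO on HFD and 48.4% on chow. The subfamily holds abundant drug-metabolising enzymes and steroid hydroxylases and forms a cluster on chromosome 15. On HFD the differences ranged from -1.86 to -0.31 with a median of -0.51. On chow they ranged from -0.28 to -0.13. The direction held for all 9 genes on both diets under each alternative processing. The number lower by more than 0.29 on HFD was 9 or 8, Cyp2d26 for one being at -0.26 with quantile normalisation. Over all genes, 9519 of 14677 measured ones lay within 0.29 between the genotypes on HFD. Cyp2d40 differed most. Its signal was 24742 (F/F) and 20466 (LKO) on chow, and 30889 (F/F) and 8537 (LKO) on HFD. The LKO HFD array alone was low, at 3.62-fold below F/F on HFD and 2.40-fold below LKO on chow.

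Cyp2d9, a male-biased testosterone hydroxylase, had a signal of 23620 (F/F) and 20600 (LKO) on chow, and 12796 (F/F) and 9020 (LKO) on HFD. HFD minus chow came to -0.88 in F/F and -1.19 in LKO mice. Cyp2d34 gave 830 (F/F) and 684 (LKO) on chow, and 419 (F/F) and 291 (LKO) on HFD. It had a similar order of arrays, with diet differences of -0.99 in F/F and -1.23 in LKO. Cyp2d13, which RefSeq lists as a transcribed pseudogene, gave 747 (F/F) and 683 (LKO) on chow, and 562 (F/F) and 339 (LKO) on HFD. Its diet difference was -0.41 in F/F and -1.01 in LKO, the latter close to the threshold.

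Cyp2d26 had the brightest probe of the subfamily, with 134360 (F/F) and 122670 (LKO) on chow, and 111580 (F/F) and 79048 (LKO) on HFD. The genotype difference was -0.50 on HFD and -0.13 on chow, and a second probe of Cyp2d26 gave -0.46 and -0.13. Its diet difference depended on the processing, from -0.37 to 0.06 in F/F and from -0.72 to -0.08 in LKO. The remaining genes Cyp2d10, Cyp2d11, Cyp2d12 and Cyp2d22 differed between the genotypes by -0.54 to -0.31 on HFD. The Cyp2d genes resemble each other, and their probes may share RNA.

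The 15 Cyp2c genes with a probe all lie on chromosome 19. They split into genes that were lower both on HFD and in LKO on HFD, genes that were lower on HFD alone, and genes near the background. The first set comprises Cyp2c37, Cyp2c38, Cyp2c50 and Cyp2c54, which are known as arachidonic acid or linoleic acid oxygenases, and, with smaller genotype differences, Cyp2c29 and Cyp2c23.

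Cyp2c37, which has the brightest probe of the subfamily, had a signal of 52930 (F/F) and 40297 (LKO) on chow, and 18508 (F/F) and 8562 (LKO) on HFD. HFD was 2.86-fold below chow in F/F and 4.71-fold below it in LKO mice, and LKO was 2.16-fold below F/F on HFD. Cyp2c38 had the same order of arrays, with 23134 (F/F) and 18374 (LKO) on chow, and 7486 (F/F) and 3111 (LKO) on HFD. It had the largest genotype difference of the subfamily on HFD, -1.27, and the largest diet difference in LKO, -2.56. Cyp2c50 gave 44416 (F/F) and 34650 (LKO) on chow, and 15739 (F/F) and 7560 (LKO) on HFD. Its genotype difference was -1.06 on HFD, and a second probe gave -0.90, which is under 2-fold. Cyp2c54 gave 46342, 38316, 15111 and 7493 in that order, with a genotype difference on HFD of -1.01, which fell to -0.92 with normexp background correction.

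Cyp2c29, an epoxygenase that CAR is known to induce, had a signal of 38945 (F/F) and 31940 (LKO) on chow, and 14637 (F/F) and 9039 (LKO) on HFD. Its diet difference was -1.41 in F/F and -1.82 in LKO, and its genotype difference on HFD was -0.70. Cyp2c23, an arachidonic acid epoxygenase, gave 16656 (F/F) and 14469 (LKO) on chow, and 7213 (F/F) and 4838 (LKO) on HFD. Its genotype difference on HFD was -0.58, and its diet differences of -1.21 in F/F and -1.58 in LKO were -1.24 and -1.62 on its second probe. On chow, all 6 genes of this set were lower in LKO, with differences from -0.39 to -0.20.

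The neighbours Cyp2c67, Cyp2c68, Cyp2c40 and Cyp2c69 differed with diet and hardly with genotype. Cyp2c67 had a signal of 17058 (F/F) and 18280 (LKO) on chow, and 9316 (F/F) and 8448 (LKO) on HFD. Cyp2c68 gave 11605 and 12330 on chow, and 6559 and 5728 on HFD, in F/F and LKO. Cyp2c40 gave 4671 and 5140 on chow, and 2802 and 2536 on HFD. Cyp2c69 gave 10792 and 12400 on chow, and 6137 and 5729 on HFD. In all 4 genes the genotype difference lay between -0.20 and -0.10 on HFD and between 0.09 and 0.20 on chow, within 0.29. Their diet difference was between -0.87 and -0.74 in F/F and between -1.11 and -1.02 in LKO, so that these calls lie close to 2-fold. All 4 fell under 2-fold in LKO with quantile normalisation or with the deposited table of values. The 4 genes are near-identical copies, so that their probes may measure one pool of RNA and cannot be counted as separate evidence.

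Cyp2c70, which makes the muricholic acids of mouse bile, was lower on HFD but higher in LKO than in F/F on that diet. Its signal was 24604 (F/F) and 26515 (LKO) on chow, and 7379 (F/F) and 10627 (LKO) on HFD. The genotype difference on HFD was 0.53, the highest of all measured members by their brightest probes. The diet differences were -1.74 in F/F and -1.32 in LKO. Cyp2c55 had a low signal of 176 (F/F) and 231 (LKO) on chow, and 40.2 (F/F) and 43.1 (LKO) on HFD. Its diet differences of -2.13 in F/F and -2.42 in LKO were the largest of the subfamily in F/F and the second largest in LKO. A second probe gave -1.97 and -1.50, and normexp background correction of the brighter probe gave -1.33 and -1.60. Between the genotypes on HFD, Cyp2c55 differed by 0.10 on the brighter probe and by 0.59 on the second.

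Cyp2c39, Cyp2c65 and Cyp2c66 stayed near the background, with signals of at most 13.6 on any array. Cyp2c39, which lies between Cyp2c29 and Cyp2c38, was not well above background on either chow array. On HFD it read 11.9 (F/F) and 8.24 (LKO), a difference of -0.53. Cyp2c65 was not well above background in F/F on HFD and at least 1.51-fold higher in LKO on that diet. These low signals give little information beside the brighter neighbours.

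**Figure D4:**
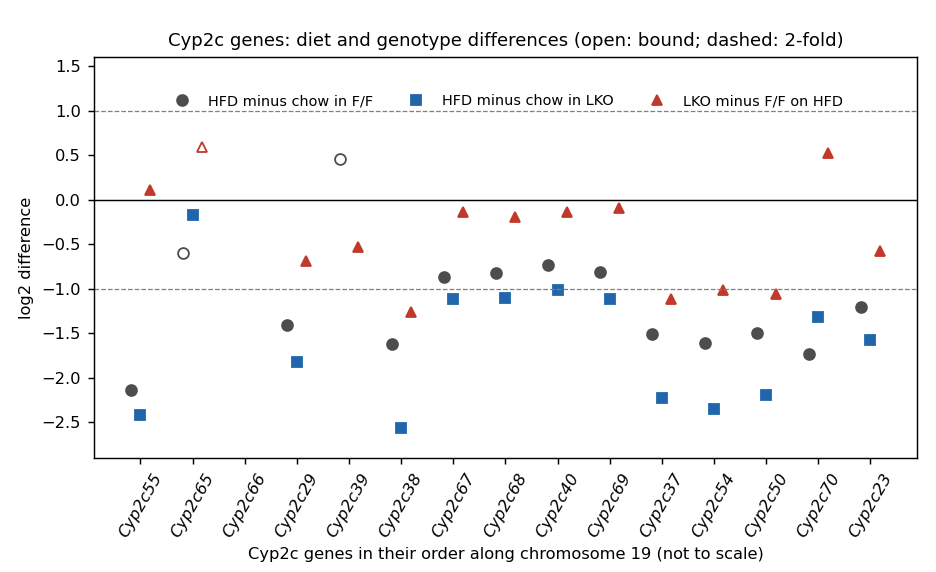
Log2 differences (vertical axis) of the Cyp2c genes in their order along chromosome 19 (horizontal axis, not to scale) for HFD minus chow in F/F (circles), HFD minus chow in LKO (squares) and LKO minus F/F on HFD (triangles). Open symbols are bounds and dashed lines mark 2-fold. Cyp2c67, Cyp2c68, Cyp2c40 and Cyp2c69 lie near 0 for genotype, between genes with genotype differences of -1.27 and -1.11.

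In the order along chromosome 19, these 4 genes stand between Cyp2c38 on one side and Cyp2c37, Cyp2c54 and Cyp2c50 on the other. Promoters of Cyp2c37 and Cyp2c50 are shown as genes with both differences, and those of Cyp2c40 and Cyp2c69 as genes with the diet difference alone, with the same build, window and capitals as for the Cyp2b genes.
Cyp2c37 (chr19:39992174-39992423, plus strand): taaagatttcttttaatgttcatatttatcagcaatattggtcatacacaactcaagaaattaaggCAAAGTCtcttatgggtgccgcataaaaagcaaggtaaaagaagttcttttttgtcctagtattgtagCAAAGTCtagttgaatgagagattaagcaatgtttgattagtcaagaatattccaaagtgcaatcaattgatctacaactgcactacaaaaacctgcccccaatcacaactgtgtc
Cyp2c50 (chr19:40089429-40089678, plus strand): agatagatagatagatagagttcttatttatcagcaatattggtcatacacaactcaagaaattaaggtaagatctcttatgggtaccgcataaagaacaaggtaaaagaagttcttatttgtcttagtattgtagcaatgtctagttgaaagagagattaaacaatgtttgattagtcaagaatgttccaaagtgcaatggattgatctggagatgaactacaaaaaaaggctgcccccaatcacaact
Cyp2c40 (chr19:39812815-39813064, minus strand): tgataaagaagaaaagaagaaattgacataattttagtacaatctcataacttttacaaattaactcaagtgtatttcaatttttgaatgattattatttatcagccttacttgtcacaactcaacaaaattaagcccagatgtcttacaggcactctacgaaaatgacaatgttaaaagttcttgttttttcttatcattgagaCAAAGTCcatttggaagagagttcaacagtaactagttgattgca
Cyp2c69 (chr19:39886770-39887019, minus strand): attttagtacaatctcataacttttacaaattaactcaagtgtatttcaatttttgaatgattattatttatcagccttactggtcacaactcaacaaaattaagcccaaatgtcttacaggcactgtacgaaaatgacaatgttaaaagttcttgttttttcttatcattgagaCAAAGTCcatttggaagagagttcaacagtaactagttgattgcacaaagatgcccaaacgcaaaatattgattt

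The Cyp2c37 and Cyp2c50 promoters were 84.3% identical. The 2 CAAAGTC matches of Cyp2c37 have no counterpart in Cyp2c50, which holds neither motif. Both genes had close to the same differences in every comparison. Whether their probes, and that of Cyp2c54, share RNA was not checked, so they cannot be counted as separate evidence. A part of the motif in these differences was not tested. The Cyp2c40 and Cyp2c69 promoters are windows offset against each other. Over the 220 bases that aligned, they differed at 3 (98.6% identity), and each holds 1 CAAAGTC. Over the 78 pairs of Cyp2c promoters, the median identity was 53.1%.

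Promoters were found for 39 of the 47 members, 41 promoters in all, of 32851 in the RefSeq table. There was none for Cyp2c23, Cyp2c54, Cyp2d12, Cyp2d13, Cyp2d22, Cyp2d34, Cyp2g1 and Cyp2u1. CAAAGTC was found in 15 of the 41 (36.6%) and in 3.84% of all promoters. The TATA box TATAAA was found in 18 (43.9%) and in 12.4% of all. AGGTCA was found in 10 (24.4%) and in 14.0% of all. The HNF1 core GTTAAT was found in 6 (14.6%, against 6.43% of all), the FOXA motif TGTTTAC in 4 (9.76%, against 3.17%) and the STAT5 motif TTCNNNGAA in 1, that of Cyp2j11 (2.44%, against 7.02%). All were searched on both strands, and AGGTCA and CAAAGTC can share their end letters. Members of a cluster share ancestry, so that their promoters are not independent, and a match is a description and not a site.

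The 4 Cyp2a genes did not reach 2-fold in any comparison. Cyp2a5, the coumarin hydroxylase, had a signal of 84714 (F/F) and 85673 (LKO) on chow, and 60470 (F/F) and 47274 (LKO) on HFD. Its diet difference was -0.49 in F/F and -0.86 in LKO, and its genotype difference was -0.36 on HFD and 0.02 on chow. Among the alternative processings, the diet differences of Cyp2a5 shrank to as little as -0.21 in F/F and -0.41 in LKO. Over Cyp2a4, Cyp2a5, Cyp2a12 and Cyp2a22, the genotype difference ranged from -0.36 to -0.21 on HFD. The diet difference ranged from -0.64 to -0.14 in F/F and from -0.90 to -0.25 in LKO. Cyp2a4 and Cyp2a5 have promoters that are 97.6% identical, and their probes may share RNA.

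Cyp2e1, the ethanol and acetaminophen oxidising enzyme of pericentral hepatocytes, had a signal of 182420 (F/F) and 184840 (LKO) on chow, and 149760 (F/F) and 119860 (LKO) on HFD. Its genotype difference was -0.32 on HFD and 0.02 on chow, and its second probe gave -0.51 and 0.01. Cyp2f2, a naphthalene oxygenase of periportal hepatocytes, gave 68918 (F/F) and 58688 (LKO) on chow, and 41816 (F/F) and 35115 (LKO) on HFD. Here the genotype difference was close to the same on both diets, -0.25 on HFD and -0.23 on chow, and the diet difference was -0.72 in F/F and -0.74 in LKO. For Cyp2e1 the diet difference was -0.28 in F/F, within 0.29, and -0.62 in LKO, and these were -0.01 and -0.10 with quantile normalisation. Cyp2f2 remained lower on HFD with that setting, at -0.49 in F/F and -0.42 in LKO.

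Cyp2g1, known chiefly from olfactory tissue, was dim. Its signal was 130 (F/F) and 80.3 (LKO) on chow, and 28.6 (F/F) and 34.2 (LKO) on HFD. Its diet difference was -2.18 in F/F and -1.23 in LKO. With normexp background correction these were -1.21 and -0.70, so that the call in LKO was lost.

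The 6 Cyp2j genes with a probe, fatty acid epoxygenases of a cluster on chromosome 4, differed less than the Cyp2c genes. Cyp2j5 had a signal of 13344 (F/F) and 12503 (LKO) on chow, and 12867 (F/F) and 9147 (LKO) on HFD. Only the LKO HFD array was low, with a genotype difference of -0.49 on HFD and -0.09 on chow, and -0.78 and -0.23 on a second probe. Cyp2j6, Cyp2j8, Cyp2j9 and Cyp2j13 had genotype differences from -0.38 to 0.14 on HFD and diet differences from -0.36 to 0.10 in LKO. The value of 0.14 belongs to Cyp2j6, for which a second probe gave -0.28.

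The members that stand alone in their subfamily were mostly dim. Cyp2r1, a vitamin D hydroxylase, was the exception with 2087 (F/F) and 1963 (LKO) on chow, and 1604 (F/F) and 1346 (LKO) on HFD. Its genotype difference was -0.25 on HFD and -0.09 on chow. Cyp2u1, a fatty acid hydroxylase, gave 124 (F/F) and 94.1 (LKO) on chow, and 158 (F/F) and 84.1 (LKO) on HFD. With -0.91 it had the largest genotype difference on HFD among members under 2-fold in the main processing. With normexp background correction this fell to -0.65.

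Cyp2w1 gave 45.2 (F/F) and 46.2 (LKO) on chow, and 42.1 (F/F) and 30.3 (LKO) on HFD. Its genotype difference on HFD was -0.47. This was -0.27 with normexp background correction and -0.86 with the mean of all probes. A second probe of Cyp2w1 was not well above background on any array. Cyp2s1 gave 82.2 and 84.6 on chow, and 63.5 and 76.7 on HFD, in F/F and LKO. Its genotype difference on HFD was 0.27. Cyp2t4 gave 17.7 and 11.9 on chow, and 12.8 and 15.6 on HFD, with a genotype difference of 0.28 on HFD and -0.57 on chow. These signals of Cyp2t4 lie close to the lowest ones well above background, which were 6.51 to 9.34 on the 4 arrays.

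Genes that serve the Cyp2 enzymes differed less. Por, the reductase that passes electrons to every microsomal P450, had a signal of 35506 (F/F) and 41545 (LKO) on chow, and 19925 (F/F) and 16697 (LKO) on HFD. Its diet difference was -0.83 in F/F and -1.32 in LKO, and its genotype difference was -0.26 on HFD and 0.23 on chow. Of the 15 electron partners and haem synthesis genes, Por was the only one past 2-fold in any comparison. It was lower on HFD in LKO, as were 4.07% of all genes. The median of these 15 was -0.26 between the genotypes on HFD, 0.04 on chow, and 0.10 and -0.18 for diet in F/F and LKO.

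Of the 26 receptors and factors known to control hepatic Cyp2 genes, 25 had a value. Nr1i3, which encodes CAR, had a signal of 1394 (F/F) and 1297 (LKO) on chow, and 1311 (F/F) and 846 (LKO) on HFD. The LKO HFD array was the low one, with a genotype difference of -0.63 on HFD and -0.10 on chow. Rxra, which encodes the partner of CAR, differed between the genotypes by -0.30 on HFD and -0.10 on chow. Nr1i2, which encodes the related receptor PXR, differed by 0.24 on HFD and 0.35 on chow. Hnf4a was 45173 (F/F) and 41860 (LKO) on chow, and 26789 (F/F) and 26519 (LKO) on HFD. For diet, it differed by -0.75 in F/F and -0.66 in LKO, with no genotype difference beyond 0.29. Dbp, a clock-controlled factor, was 6702 and 7036 on chow, and 13473 (F/F) and 5766 (LKO) on HFD. It was thus 2-fold different both between genotypes on HFD (-1.22) and between diets in F/F (1.01). Foxa3 was the only other factor past 2-fold, at -1.09 for diet in F/F. Over all genes, 1.91% were 2-fold lower in LKO on HFD. For diet in F/F, 5.21% of all genes were 2-fold higher and 2.94% lower on HFD. The median of the list was -0.25 between the genotypes on HFD, -0.08 on chow, and -0.03 and -0.40 for diet in F/F and LKO.

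Targets of CAR and PXR outside the family differed in both directions between the genotypes on HFD, with 10 higher and 11 lower in LKO. The list mixes targets of both receptors, and a part of CAR in the Cyp2b10 difference was not tested. Of 21 with a probe, Cdkn1a alone was at least 2-fold higher in LKO on HFD (1.09) and 0 were lower, with a median of -0.04. Over all genes these shares were 2.36% and 1.91%. At 1.5-fold, 3 of the 21 were higher and 3 were lower. On chow 0 were higher (1.11% of all genes) and 1, Pdk4, was lower (1.03%), with a median of -0.01. Between the diets, 1 was higher and 4 were lower in F/F (median -0.43), and 1 was higher and 5 were lower in LKO (median -0.15). Over all genes, 5.21% were higher and 2.94% lower in F/F, and 8.12% and 4.07% in LKO. Cyp3a11, a major drug oxidase, read 22164 on chow and 5546 on HFD in F/F mice, and had a diet difference of -1.40 in LKO. Ces2a, a carboxylesterase, had diet differences of -1.82 in F/F and -2.31 in LKO. Abcb1a, a drug efflux pump, was 2.29-fold higher on HFD in F/F and 2.01-fold in LKO.

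Sex-biased liver genes outside the family are given because several members are sex-biased. Of 14 male-biased genes with a probe, 8 were at least 2-fold lower on HFD in F/F and 6 in LKO, with medians of -1.46 and -0.98, and 0 were higher. Over all genes, 2.94% were lower in F/F and 4.07% in LKO, and 5.21% and 8.12% were higher. Between the genotypes, 2.36% of all genes were higher and 1.91% lower in LKO on HFD, and 1.11% and 1.03% on chow. Hsd3b5, a steroid dehydrogenase, differed most, with -5.22 in F/F and -6.96 in LKO, and the transporter Slco1a1 had -2.50 and -3.11. Between the genotypes, Cyp4a12a (1.30) and Cyp4a12b (1.27), fatty acid hydroxylases, were higher in LKO on HFD and Hsd3b5 was lower (-2.83), with a median of -0.22. On chow 0 were higher and Hsd3b5 was lower (-1.09), with a median of 0.05. Of 17 female-biased genes, 10 had a value on HFD, and 1 was at least 2-fold higher (Atp6v0d2, 1.43) and 1 lower in LKO, with a median of 0.16. Hao2, a peroxisomal oxidase, was the lower one, at 106 (F/F) and 8.10 (LKO) on HFD (-3.71), and it was not well above background on chow. On chow, Abcd2, a peroxisomal transporter, was higher in LKO (1.26) and 0 were lower, with a median of 0.14. Between the diets, 2 were higher and 3 lower in either genotype, with medians of -0.33 in F/F and -0.29 in LKO. In F/F mice, Abcd2 was 6.85-fold and Hao2 at least 12.2-fold higher on HFD, while Cyp3a41a (-1.70) and Cyp3a16 (-2.04) were among those lower. In LKO mice, Abcd2 (1.32) and Atp6v0d2 (1.97) were higher, and Cyp3a41a (-1.30) and Cyp3a16 (-1.58) were among those lower. Cyp3a11, described above, was likewise lower on HFD in both genotypes, with -1.40 in LKO mice. On HFD, Cyp3a11 (0.82), Cyp3a16 (0.79) and Cyp3a41a (0.55) were all higher in LKO than in F/F. Whether the probes of these Cyp3a genes share RNA was not tested, so they cannot be counted as separate evidence on female-biased genes.

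Zonation genes outside the family were also lower in LKO on HFD at the median, close to the -0.40 of the Cyp2 genes. The 14 pericentral genes had a median of -0.36 between the genotypes on HFD and 0.03 on chow, and of -0.05 and -0.37 for diet in F/F and LKO. Of these, Lgr5, a Wnt pathway receptor, was the only one past 2-fold between the genotypes on HFD (-1.34). The 15 periportal genes had a median of -0.29 on HFD and 0.02 on chow, and of -0.34 and -0.65 for diet in F/F and LKO. Hal (-1.17), G6pc (-1.24) and Etnppl (-1.31) were at least 2-fold lower in LKO on HFD, as were 1.91% of all genes.

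Markers of other cells moved with the groups as well. The 11 hepatocyte markers were well above background on all 4 arrays, as the tissue label has it. Their median difference was -0.20 between the genotypes on HFD and 0.03 on chow, and -0.28 and -0.51 for diet in F/F and LKO. The median of the Cyp2 family was -0.40, -0.16, -0.47 and -0.84 in the same comparisons. Monocyte and macrophage markers, 12 genes, had medians of 0.60, 0.02, 0.45 and 0.96, and their summed signal ranged from 22470 to 36807. Stellate cell markers, 9 genes, had medians of 0.39, 0.21, 0.60 and 0.85, with summed signals from 17652 to 29690. Endothelial markers, 7 genes, had medians of 0.11, 0.05, 0.45 and 0.43, with summed signals from 10780 to 13092, and the 6 cholangiocyte markers had 0.29, -0.17, 0.41 and 1.02, with summed signals from 1099 to 3754. Macrophage, stellate cell and cholangiocyte markers thus gave their highest summed signal on the LKO HFD array, where most Cyp2 members were lowest. Their part in the Cyp2 differences was not tested.

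Exocrine pancreas markers were present, with 15 of 16 well above background on all 4 arrays and Cuzd1 on none. Their summed signal was 15234 (F/F) and 9930 (LKO) on chow, and 8553 (F/F) and 18184 (LKO) on HFD, with medians of 1.74, -0.88, -0.75 and 2.07 in the order used above. The LKO HFD array was the highest and the F/F HFD array, on which the Cyp2b genes were highest, the lowest. Red blood cell markers summed to 26845 and 26405 on chow, and to 49995 (F/F) and 25379 (LKO) on HFD. Their medians were -0.96, -0.02, 0.99 and -0.06. They were thus highest on the F/F HFD array, as the Cyp2b genes were. The part of either cell type in the Cyp2 differences was not tested.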

How the data were processed

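Liver RNA of 4 groups was measured on SurePrint G3 Mouse 8x60K arrays, 1 per group, and groups were taken from the labels. Per the labels and file headers, the authors deposited spot intensity values from Agilent Feature Extraction 12.0.3.1, with the background subtracted. They also deposited a table of intensity values, which is the processed signal times 1 factor per array (2.60 for F/F and 2.63 for LKO on chow, 2.41 for F/F and 2.10 for LKO on HFD), and how the factors were made is not given in the sources used here. The labels and the methods name different RNA extraction kits.

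Control spots and outlier spots (76 to 132 per array) were left out. Each array was centred on the 75th percentile of its log2 intensity with Python 3.11.15, numpy 2.4.6 and pandas 2.3.3, and shown on a common scale (246). Of 56605 probes, 33767 (59.7%) matched a gene by accession in the RefSeq table of GRCm38.p6, and the brightest probe stood for a gene. Of the members, 11 had more than 1 probe. A gene below background on 1 array has a bound against the lowest signal well above background there. Raw signals at that floor ranged from 7.80 to 8.35. Promoters were aligned with Biopython 1.88, and figures were drawn with matplotlib 3.10.9. The steps were tested on simulated data.

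Members at least 2-fold different in any comparison (20) and the brightest of each subfamily, 30 in all, were given values on every array. Genes outside the family were named from the lists only where 2-fold different in a comparison described, not every such gene being named, and Por, Nr1i3, Nr1i2, Rxra and Hnf4a in any case. The members and lists were chosen with earlier results of these data known. Alternatives were normexp background correction (limma 3.58.1 in R 4.3.3, offset 50), quantile normalisation, a percentile taken only over probes above background throughout, the deposited table, other filters, the mean of all probes, and 1.5-fold and 4-fold thresholds. The number of arrays limits the precision.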

Additional observations from a re-analysis of the deposited data

Results flagged for a closer look

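For 3 members, the diet differences in the genotypes had opposite signs and were both larger than 0.29, which is 3 technical SDs. The share of all genes that do so was not counted. Passing 0.29 was common, since only 7478 of 14282 measured genes lay within it in F/F. In LKO, 6614 of 14261 did. Cyp2b10 was higher on HFD than on chow by 1.42 in F/F mice and differed by -0.62 in LKO mice. Its second probe gave 0.12 and -1.57. Cyp2d40 differed by 0.32 in F/F, close to 0.29, and by -1.26 in LKO, and it has no second probe. Cyp2t4 differed by -0.46 in F/F and by 0.39 in LKO, at signals of 11.9 to 17.7. Cyp2u1 (0.35 in F/F and -0.16 in LKO) and Cyp2j6 (-0.16 and 0.10) also had opposite signs, with at least 1 value within 0.29. Whether these diet differences differ between the genotypes was not tested, since each group has 1 array.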

How the results depend on the processing

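Each comparison rests on 2 arrays, so no array could be left out. No paired analysis was possible because each group has 1 array. No call of a named member changed direction under any alternative. Of 836 values recomputed for named members, 151 moved by more than the technical SD of replicate spots and 685 did not. Many of the 685 could not move, so the count does not measure robustness. The other filters leave a member well above background on all 4 arrays unchanged. The mean of all probes leaves a member with 1 probe unchanged. Without the filter on dim signals and its floor, 1 member was 2-fold higher in LKO on HFD, 1 was higher and 1 lower on chow, 2 were higher on HFD in LKO, and the median diet difference in LKO was -0.66. With normexp background correction the median was -0.29 between genotypes on HFD and -0.70 for diet in LKO, and 0 members were 2-fold higher on HFD in LKO, as also (0) among members well above background on all 4 arrays. With quantile normalisation the median diet difference was -0.36 in F/F and -0.49 in LKO, and with the deposited table -0.33 and -0.69. The deposited table moved the median of all genes by 0.14 in F/F and 0.15 in LKO in the diet comparisons, and leaving out the filter by -0.12 in LKO. At 1.5-fold, 1 member was higher in LKO on HFD (8.07% of all genes), 2 were lower in LKO on chow (3.46%), 18 were lower on HFD in F/F (9.6%), and 2 were higher (15.4%) and 26 lower (11.7%) on HFD in LKO. At 4-fold, 3 were lower in LKO on HFD (0.348%), 2 were lower on HFD in F/F (0.612%) and 5 in LKO (0.761%). Of the 18 diet calls in LKO, 13 remained 2-fold with normexp background correction, quantile normalisation or the deposited table, and the cause was not tested. Low signal over background limits Cyp2b13, Cyp2c39, Cyp2c65, Cyp2g1, Cyp2t4, Cyp2u1 and Cyp2w1.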
